A study of Mus musculus with 4 samples.

Results

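The genes described here are 44 known imprinted genes of the mouse, chosen by symbol from the 24054 gene rows of each count table, and grouped by imprinted cluster and by the parental copy that is transcribed. Of the 44, 25 are known as paternally expressed and 19 as maternally expressed. Of these, 9 were set apart as imprinted only in some tissues or for some transcripts (Ube3a, Copg2, Blcap, Gnas, Commd1, Trappc9, H13, Grb10 and Inpp5f). Whether other members are limited in this way in these cells was not tested. They lie in 19 clusters or single loci on 11 chromosomes. RNA was measured in 4 libraries of feeder-independent mouse embryonic stem (ES) cells grown with serum and LIF on gelatin. The wild-type library came from the line wt26, with a title that reads wt26p46, and the Morc3 rescue libraries from the cell lines T131-3C, T131-3D and T131-3M, called 3C, 3D and 3M below. All 3 rescue lines are single clones of KO27-2, a Morc3 ko clone of wt26 made with CRISPR-Cas9, and they carry a PiggyBac transposon with Morc3 and were selected with puromycin. With 1 wild-type library and 1 parental ko clone, a difference between rescue and wild type cannot be told apart from a difference that arose by cloning.

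Imprinted genes are transcribed from either the maternal or the paternal copy. For most of them the choice is set by DNA methylation that is laid down in the egg or the sperm at imprinting control regions. In ES cells this methylation is kept by factors such as Zfp57, Trim28 and Dnmt1. Many clusters hold a long non-coding RNA from one parental copy beside protein-coding genes from the other, and imprints are known to be lost or gained during the culture of ES cells. The counts used here sum both parental copies, so they give the level of a gene and not which copy was transcribed.

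The gene counts summed to 18789457 for wild type and to 13620914 up to 15479190 for the clones, and 3 counts, the limit that a count of 0 allows, correspond to between 0.157 and 0.223 CPM (read pairs scaled to library size with edgeR's TMM factors). Morc3, the targeted gene, had 3065 counts in wild type against 8830, 7225 and 9437 in 3C, 3D and 3M, so it was higher in every rescue clone. All 11 ES cell markers were present at 152 to 1660 CPM in every library. The summed trophoblast markers lay between 3.26 and 11 CPM, those of primitive endoderm between 7.08 and 11.4 and those of mesoderm between 3.41 and 4.40, with Prl3d1, Tpbpa, Ttr and Hand2 at 0 in all 4 libraries. Fibroblast markers summed to between 1750 and 2530 CPM, nearly all of it Fn1. Of the others, Thy1 lay between 18.6 and 43.7 CPM and Col1a1 between 0.71 and 1.51 CPM. Col1a2, Acta2 and Postn had at most 3 counts in any library, and Col3a1 and Dcn were at 0. Neural markers summed to between 94.7 and 129 CPM, mostly Tubb3 and Nes. Pairs of clones differed by a chi-square of 7.17 to 10.8 per gene, far above sampling noise, so no library was counted as a copy of another.

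The DNA letters near the starts of the genes that the results turn on were taken from RefSeq (GRCm38.p6, the assembly of mm10), which held 49 promoters for 34 of the 44 genes. The bases before the start are shown 5′ to 3′ in lower case, and capitals mark TGCCGC, searched on both strands, the letters that Zfp57 recognises when they are methylated. The Peg3-Usp29 stretch lies between a start of Peg3 and a start of Usp29, both paternally expressed and read in opposite directions, at chr7:6730420-6730582 on the plus strand. The others are 250 bases before a start of Igf2 (chr7:142658805-142659054, minus strand), of Plagl1 (chr10:13090582-13090831, plus), of Nnat (chr2:157559828-157560077, plus), of Grb10 (chr11:12037421-12037670, minus) and of Mest (chr6:30737800-30738049, plus). Where a gene had several starts, the one with the most TGCCGC letters and then the most CpG is shown.
Peg3-Usp29: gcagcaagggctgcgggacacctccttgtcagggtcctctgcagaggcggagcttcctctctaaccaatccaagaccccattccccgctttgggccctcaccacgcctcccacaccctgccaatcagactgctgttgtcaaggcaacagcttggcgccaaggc
Igf2: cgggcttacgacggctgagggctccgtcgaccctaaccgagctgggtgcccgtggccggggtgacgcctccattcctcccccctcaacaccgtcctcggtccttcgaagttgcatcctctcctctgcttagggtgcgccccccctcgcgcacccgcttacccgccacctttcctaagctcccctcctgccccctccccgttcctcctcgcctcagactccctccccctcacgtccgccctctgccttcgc
Plagl1: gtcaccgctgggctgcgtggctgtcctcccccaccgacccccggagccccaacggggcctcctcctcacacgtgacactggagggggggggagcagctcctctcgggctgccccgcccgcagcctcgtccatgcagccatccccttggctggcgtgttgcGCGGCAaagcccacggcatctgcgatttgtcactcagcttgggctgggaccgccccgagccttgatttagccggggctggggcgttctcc
Nnat: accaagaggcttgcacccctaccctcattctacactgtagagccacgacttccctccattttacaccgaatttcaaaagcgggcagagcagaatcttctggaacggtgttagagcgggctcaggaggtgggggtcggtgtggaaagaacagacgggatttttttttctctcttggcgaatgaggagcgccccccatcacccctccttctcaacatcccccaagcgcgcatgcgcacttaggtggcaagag
Grb10: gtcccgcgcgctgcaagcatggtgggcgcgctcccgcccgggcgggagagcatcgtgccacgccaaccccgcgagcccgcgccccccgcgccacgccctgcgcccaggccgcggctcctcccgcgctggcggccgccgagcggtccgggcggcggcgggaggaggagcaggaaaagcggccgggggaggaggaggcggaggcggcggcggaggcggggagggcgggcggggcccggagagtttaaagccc
Mest: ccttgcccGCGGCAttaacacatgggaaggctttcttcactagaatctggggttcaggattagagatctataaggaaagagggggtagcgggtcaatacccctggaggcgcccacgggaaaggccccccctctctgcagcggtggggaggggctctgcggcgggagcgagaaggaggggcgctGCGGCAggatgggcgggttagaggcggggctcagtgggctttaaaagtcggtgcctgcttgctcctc

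The Plagl1 stretch held 1 match and the Mest stretch 2, while those of Peg3-Usp29, Igf2, Nnat and Grb10 held 0. Over all promoters of these genes, 8 of 49 (16.3%) held the letters in the 250 bases before the start, against 8.68% of 32851 promoters of the mouse. Starts of Mest with overlapping stretches were counted apart here. By gene it was 7 of 34, against 2660 of 27025 for the mouse. The genes with a match were Zdbf2 (3 matches), Mest, Mcts2, Plagl1, Copg2, Zim1 and Meg3. A match of letters is a description and not a binding site. Imprinting control regions were not searched as such, so 0 matches before a start do not show that a locus lacks these letters. The imprinted genes' promoters held a median of 12 CpG in 250 bases, against 6 for all promoters, and the Grb10 stretch, with 40, held the most of them. TGCCGC itself holds a CpG, and the part of CpG content in the share with these letters was not tested.

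Most imprinted genes were transcribed in these cells, and the clusters differed from near silence to some of the higher levels of the set. Of the 44 genes, 34 had enough counts for the test across all genes, and 10 did not (Meg3, Rian, Mirg, Rtl1, Dio3, H19, Snrpn, Kcnq1, Airn and Rasgrf1). Mirg and Rasgrf1 had 0 counts in all 4 libraries. Levels per kilobase used the longest GENCODE transcript with a RefSeq name, or the longest of all where none had one. By this measure the highest levels over the 4 libraries were those of Phlda2 (mean 86.6 CPM per kb), Peg10 (61.8), Grb10 (36.5), Mest (30.0), Gnas (26.3) and Zdbf2 (25.1). The summed level of all 44 genes was 2270 CPM in wild type against 2140, 2230 and 2170 CPM in 3C, 3D and 3M.

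**Figure D1:**
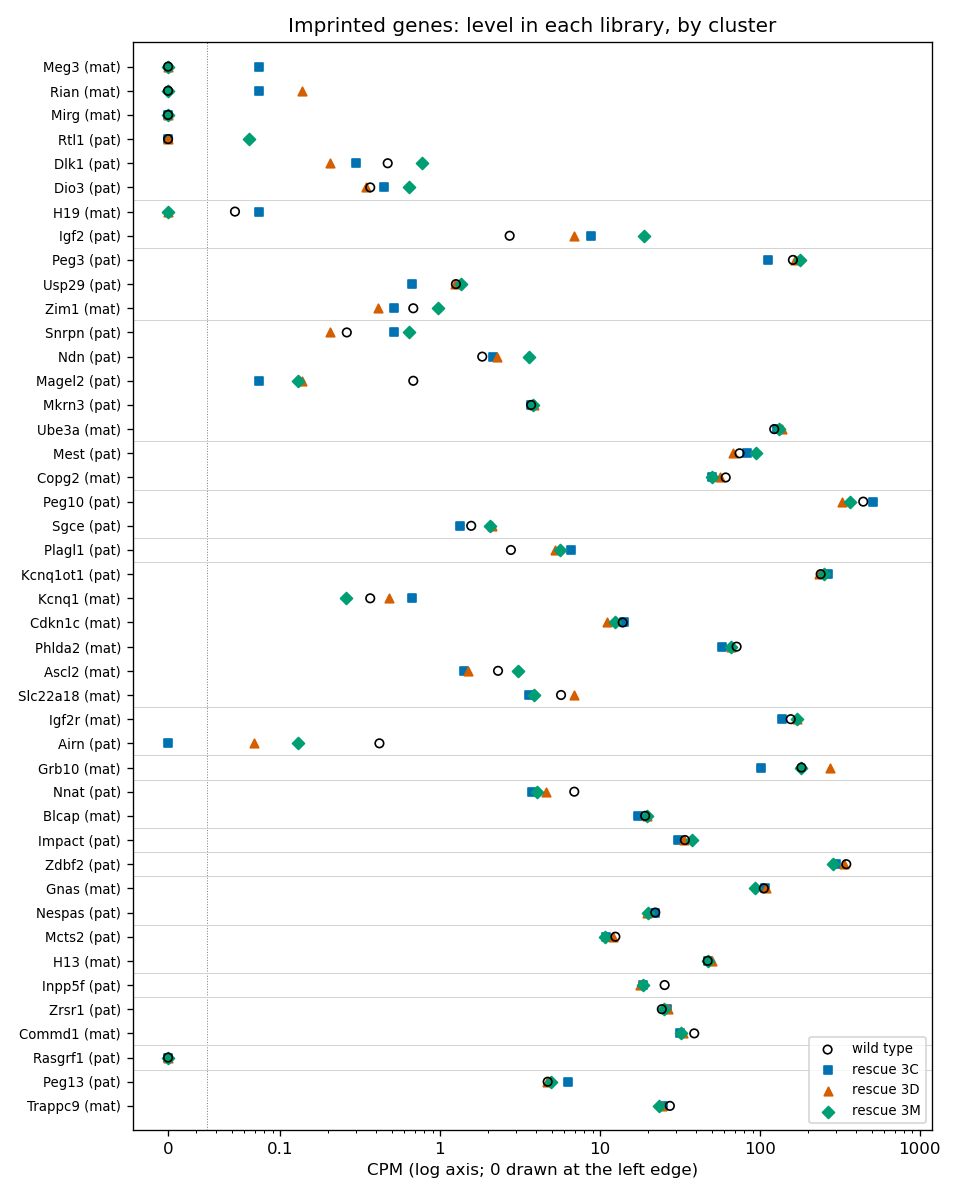
Level of each of the 44 imprinted genes in CPM on a log axis, in wild type (open circles) and in rescue clones 3C (squares), 3D (triangles) and 3M (diamonds), with clusters divided by grey lines and a count of 0 drawn at the left edge. Meg3, Rian, Mirg, Rtl1, H19 and Rasgrf1 sit at or near 0 in every library, while Peg10 reaches 513 CPM in clone 3C.

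No imprinted gene passed the adjusted p of 0.01 between rescue and wild type in the quasi-likelihood test of edgeR (Benjamini-Hochberg adjustment), in which 1 of all 13267 genes tested (0.00754%) passed. The lowest adjusted p among them was 0.25, for Magel2. This gene passed the count filter only through wild type, the library where it was high, so a lower rescue level was built into its being tested. At an unadjusted p under 0.05 there were 6 of the 34 (17.6%), against 10.3% of all genes. Of these, Igf2 and Plagl1 were higher in rescue, where 5.92% of all genes were at this p, and Magel2, Nnat, Inpp5f and Commd1 were lower, where 4.42% were. With at least 10 counts required in every library, Magel2 was not tested. Then 5 of 30 imprinted genes had an unadjusted p under 0.05 by edgeR, against 10.5% of all genes. DESeq2's Wald test gave an adjusted p for 22 of the 34 and called 0 of these, while the other 12, Plagl1, Magel2 and Nnat among them, got none and could not be called. Over all genes it called 65 of the 9409 that got an adjusted p. It had 3 of the 34 at an unadjusted p under 0.05 (Igf2, Plagl1 and Inpp5f), where 5.75% of all genes were at this p by DESeq2. Only Igf2, Plagl1 and Magel2 differed by 1 or more on the log2 scale, 3 of 34 genes, against 3.77% of all genes. In 5 of the 34 all clones lay above wild type and in 9 all lay below, 14 in all (41.2%), against 28.7% above and 28.4% below among all genes.

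Over the 20 tested paternally expressed genes the median log2 fold change was -0.03, 10 higher and 10 lower in rescue. The maternally expressed genes had a median of -0.11 over 14 tested genes, 4 higher and 10 lower. The median of all genes tested was 0.01. The clones' own medians for the paternally expressed genes were -0.07, -0.04 and 0.07 in 3C, 3D and 3M (SD 0.07), and for the maternally expressed genes -0.23, -0.04 and -0.06 (SD 0.11). The paternal median was thus nearer to that of all genes than 1 SD between clones, and the maternal one about 1 SD away.

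**Figure D2:**
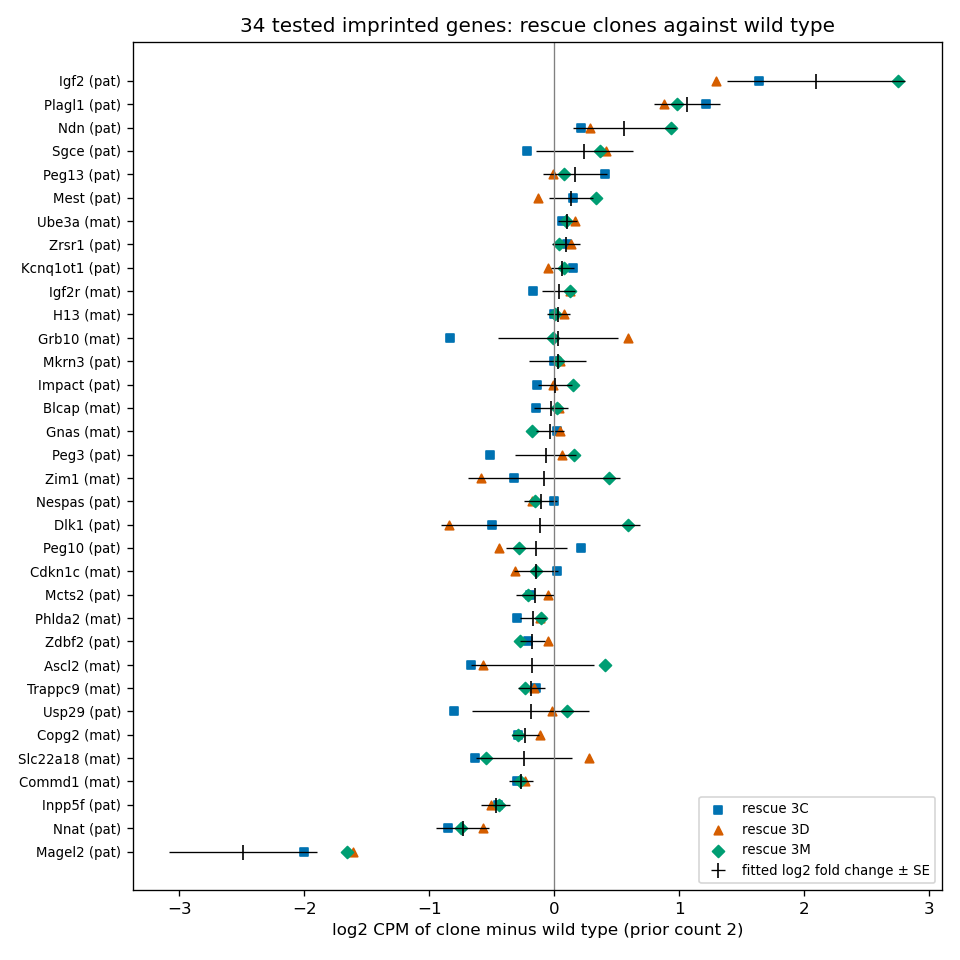
Difference of each rescue clone from wild type in log2 CPM (prior count 2; squares 3C, triangles 3D, diamonds 3M) for the 34 tested imprinted genes, with the fitted log2 fold change and its SE as a black tick and line. Igf2 and Plagl1 lie above 0 and Magel2, Nnat, Inpp5f and Commd1 below it in all 3 clones, while Grb10 lies on both sides.

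At the H19-Igf2 locus on chromosome 7, Igf2, the fetal growth factor made from the paternal copy (142650768 to 142666816), had 52 counts in wild type against 118, 100 and 295 in 3C, 3D and 3M. All clones lay above wild type, and 3M stood apart from the other clones. The level was 11.6 ± 6.55 CPM (SD, n = 3) in rescue against 2.73 CPM (log2 fold change 2.09, standard error (SE) 0.71, unadjusted p = 0.028, adjusted p = 0.43 by edgeR). DESeq2 gave an adjusted p of 0.031. Without clone 3D, which had the Igf2 level nearest to wild type, edgeR's adjusted p was 0.0037 with a log2 fold change of 2.36, but 420 of all 13243 genes (3.17%) were then called. Without 3M the log2 fold change was 1.51 with an adjusted p of 0.73 by edgeR. H19, the non-coding RNA made from the maternal copy 3′ of Igf2, had 1, 1, 0 and 0 counts in wild type, 3C, 3D and 3M. Igf2 thus took between 98.1% and 100% of the counts of the pair in each library. The microRNA rows of the locus, Mir675 in H19 and Mir483 in Igf2, were at 0 in all libraries. Igf2os, antisense to Igf2, had 3 counts in wild type against 4, 6 and 15 in the clones, with the highest in 3M as for Igf2.

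Plagl1, a zinc finger transcription factor read from the paternal copy on chromosome 10 (13090832 to 13131694), had 53 counts in wild type against 89, 76 and 87 in the clones. The clones did not overlap wild type and lay close together, at 5.81 ± 0.71 CPM (SD, n = 3) against 2.78 CPM. Its log2 fold change was 1.06 (SE 0.26, unadjusted p = 0.0077, adjusted p = 0.31 by edgeR).

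In the Snrpn-Ube3a cluster, Magel2, a paternally expressed gene of the MAGE family (chromosome 7, 62376979 to 62381640), had 13 counts in wild type against 1, 2 and 2 in the clones. All clones were lower, with a fitted log2 fold change of -2.49 (SE 0.59, unadjusted p = 0.0046, adjusted p = 0.25 by edgeR), and all 3 clones were under the limit that a count of 0 allows. Magel2 passed the count filter only through wild type, so these values are no support for a difference. The other tested genes of the cluster were not lower in all clones. Ndn, another MAGE gene of the cluster, had 35 counts in wild type against 29, 33 and 56 in the clones, with a log2 fold change of 0.56 (SE 0.41, adjusted p = 0.67 by edgeR). Mkrn3, a ring finger ubiquitin ligase, had 71, 50, 56 and 59 counts in wild type, 3C, 3D and 3M, or 3.72, 3.71, 3.85 and 3.81 CPM. Of the 500 tested genes nearest to Mkrn3 in level, 1.4% had a smaller spread between clones. Ube3a, the ubiquitin ligase whose maternal copy is used in neurons, had 2343 counts in wild type against 1725, 1999 and 2024 in the clones (log2 fold change 0.10, SE 0.08, adjusted p = 0.68 by edgeR). Snrpn, a splicing protein gene, had 5 counts in wild type against 7, 3 and 10 in the clones. In RefSeq, Snurf lies within the span of Snrpn on the same strand (both are listed from 59982495), it was at 0 in all libraries, and a read pair on exons of 2 genes is counted for neither, so these low values do not show that Snrpn was silent. In GENCODE, 10.0% of the 2159 exonic bases of Snrpn are shared with Snurf. In RefSeq, D7Ertd715e (59272737 to 60450177) also spans Snrpn on the same strand. How far either gene lowers the Snrpn count was not tested. D7Ertd715e, the non-coding transcript that runs across the cluster on the same strand, had 361 counts in wild type against 214, 291 and 331 in the clones (log2 fold change 0.02, SE 0.19, unadjusted p = 0.94 by edgeR).

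In the Nnat-Blcap pair on chromosome 2, Nnat, a small membrane protein of neural and endocrine cells that lies within an intron of Blcap (157560078 to 157562525), had 132 counts in wild type against 51, 67 and 63 in the clones. All clones were lower, at 4.15 ± 0.42 CPM (SD, n = 3) against 6.92 CPM (log2 fold change -0.73, SE 0.21, unadjusted p = 0.015, adjusted p = 0.35 by edgeR). Blcap, read from the other strand around it, had 367 counts in wild type against 234, 288 and 303 in the clones (log2 fold change -0.02, SE 0.14, adjusted p = 0.97 by edgeR). Nnat made up 26.5% of the counts of the pair in wild type (95% exact interval 22.6% to 30.6%, for counting error only) and 17.9%, 18.9% and 17.2% in 3C, 3D and 3M. Counts on the strand opposite to Nnat were 74 in wild type against 50, 63 and 58 in the clones, and in the unstranded column the Nnat share was 36.0% in wild type and 30.1%, 31.1% and 28.5% in 3C, 3D and 3M, lower in all clones as well. Tubb3, a neural marker, was also lower in all clones, at 43.5 ± 4.95 CPM (SD, n = 3) against 73.8 CPM, and so was Neurod1, with 26 counts in wild type against 15, 13 and 13 in the clones. Of the other tested neural markers, Sox1, Nes and Map2 lay on both sides of wild type. Among those too low for the test, Pax6 was higher in all clones, with 0 counts in wild type against 4, 2 and 8. Olig2 had 1 count in wild type against 0, 3 and 0, and Dcx was at 0 in all libraries. The part of neural transcripts in the Nnat difference was not tested.

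Inpp5f, a phosphoinositide phosphatase of chromosome 7 (128611181 to 128696436) of which a short transcript is paternally expressed, had 484 counts in wild type against 250, 259 and 289 in the clones. The clones were nearly equal, at 18.3 ± 0.47 CPM (SD, n = 3) against 25.4 CPM, and its log2 fold change was -0.47 (SE 0.12, unadjusted p = 0.0073, adjusted p = 0.30 by edgeR). Commd1, a regulator of copper handling on chromosome 11 (22899728 to 22984539), had 742 counts in wild type against 427, 480 and 498 in the clones, 38.9 CPM against 32.3 ± 0.67 CPM (SD, n = 3). Its log2 fold change was -0.27 (SE 0.10, unadjusted p = 0.033, adjusted p = 0.44 by edgeR). Zrsr1, the paternally expressed retrogene of a splicing factor that lies in an intron of Commd1, had 466 counts in wild type against 353, 390 and 388 in the clones (log2 fold change 0.09, SE 0.11). The share of Zrsr1 in the counts of both was 38.6% in wild type (95% exact interval 35.8% to 41.4%) and 45.3%, 44.8% and 43.8% in the clones.

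The Dlk1-Dio3 cluster of chromosome 12, a site where ES cell lines are known to differ in imprinting, had few counts in wild type and rescue alike. Its maternally expressed non-coding RNAs Meg3, Rian and Mirg, which host small nucleolar RNAs and microRNAs, had at most 2 counts in any library. Meg3 had 0 counts in wild type, 3D and 3M and 1 in 3C. Rian had 0 counts in wild type and 3M, 1 in 3C and 2 in 3D. Between the ends of the cluster, 70 of 71 other rows, among them all 61 microRNA rows, were at 0 in all 4 libraries, although such libraries are not made to hold mature microRNAs. The exception was Dio3os, with 3 counts in wild type against 1 in 3C. Of the paternally expressed genes, Rtl1, a retrotransposon-derived gene, had 1 count in 3M and 0 elsewhere. Dlk1, a transmembrane protein related to Notch ligands, had 9 counts in wild type against 4, 3 and 12 in the clones (log2 fold change -0.11, SE 0.80, adjusted p = 0.98 by edgeR). Dio3, a thyroid hormone deiodinase, had 7 counts in wild type against 6, 5 and 10. The summed Dio3 rate of the clones was 1.31 times that of wild type (95% exact interval 0.54 to 3.66, for counting error only), so no difference was detectable at this depth.

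In the Kcnq1 cluster of chromosome 7, the long non-coding RNA Kcnq1ot1, which silences its neighbours on the paternal copy, had 4585 counts in wild type against 3601, 3384 and 3917 in the clones. It differed by less than the spread between clones, with a log2 fold change of 0.06 (SE 0.09, adjusted p = 0.85 by edgeR). Kcnq1, a potassium channel read from the other strand, had 7 counts in wild type against 9, 7 and 4 in the clones, and the rate ratio was 1.25 (95% exact interval 0.51 to 3.50). Of the maternally expressed genes, Phlda2, which limits placental growth, had 1365 counts in wild type against 785, 960 and 1031 in the clones (log2 fold change -0.17, SE 0.11, adjusted p = 0.62 by edgeR). Cdkn1c, an inhibitor of cyclin-dependent kinases, had 265 in wild type against 190, 162 and 194 (log2 fold change -0.15, SE 0.18). Ascl2, a trophoblast transcription factor, had 44 in wild type against 19, 22 and 48, and Slc22a18, a transporter, had 109 in wild type against 49, 101 and 60. Both lay on either side of wild type. The fitted values of these 4 maternally expressed genes were all below 0 (Ascl2 -0.18, Slc22a18 -0.24), and none had an unadjusted p under 0.05.

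At Igf2r-Airn on chromosome 17, Igf2r, the receptor that clears Igf2 from the cell surface, had 2977 counts in wild type against 1865, 2473 and 2643 in the clones (log2 fold change 0.03, SE 0.13, adjusted p = 0.96 by edgeR). Airn, the paternal non-coding RNA that overlaps its promoter, had 8 counts in wild type against 0, 1 and 2 in the clones. The Airn rate ratio was 0.16 (95% exact interval 0.03 to 0.69, for counting error only), and all clones were below the limit that a count of 0 allows. This interval was not adjusted for the number of genes too low for the test. In the unstranded column Airn had 9 counts in wild type against 3, 1 and 3 in 3C, 3D and 3M. The GENCODE transcript used for the length of Airn holds 1113 bases, and all its GENCODE exons together 3597, of a span from 12741311 to 12859884. Read pairs outside annotated exons are in no count.

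Grb10 stood out among the imprinted genes by its spread between clones. It encodes an adaptor of the insulin receptor and lies on chromosome 11 (11930499 to 12037428). It had 3475 counts in wild type against 1372, 3981 and 2807 in 3C, 3D and 3M, or 182 CPM against 102, 274 and 181 CPM. Clone 3C lay below wild type, 3D above it and 3M at its level, so the fitted log2 fold change was 0.03 (SE 0.48, adjusted p = 0.99 by edgeR), and its sign turned without clone 3D (-0.36). The SD of log2 CPM over the clones was 0.72, larger than that of 99.8% of the 500 tested genes nearest to it in level.

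The spread of Igf2 (SD 0.76) was larger than that of 98.4% of the genes nearest in level, and Peg3 (0.36) and Peg10 (0.34) were each above 98.8% of theirs. Peg3, a zinc finger protein of chromosome 7 (6703892 to 6730462), had 3064 counts in wild type against 1518, 2432 and 2770 in the clones, or 161 CPM against 113, 167 and 179 CPM, with 3C the low clone. Its fitted log2 fold change was -0.07 (SE 0.25, adjusted p = 0.95 by edgeR). Usp29, the ubiquitin protease gene that starts beside Peg3 and is read the other way from the stretch shown above, had 24 counts in wild type against 9, 18 and 21 in the clones. It was lowest in the same clone, 0.80 below wild type on the log2 scale in 3C, where Peg3 was 0.51 below. Zim1, the maternally expressed zinc finger gene of the cluster, had 13 counts in wild type against 7, 6 and 15 in the clones.

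Peg10, a retrotransposon-derived gene needed in the placenta (chromosome 6, 4747306 to 4760517), had the most counts of all 44 genes, 8454 in wild type against 6917, 4750 and 5645 in the clones. Here 3C lay above wild type at 513 CPM against 443 CPM, and 3D and 3M below it at 326 and 364 CPM (log2 fold change -0.14, SE 0.24, adjusted p = 0.87 by edgeR). Sgce, a sarcoglycan read away from Peg10 from the same promoter region, had 30 counts in wild type against 18, 31 and 32 in the clones, with 3C the lowest. Mest, a paternally expressed gene of the hydrolase family on chromosome 6 (30733506 to 30748466), had 1424 counts in wild type against 1116, 991 and 1458 in the clones (log2 fold change 0.13, SE 0.18, adjusted p = 0.83 by edgeR). Its spread, 0.24, was above that of 92.0% of the genes nearest in level. Copg2, a coatomer subunit whose 3′ end overlaps that of Mest on the other strand, had 1167 counts in wild type against 674, 820 and 773 in the clones (log2 fold change -0.23, SE 0.11, unadjusted p = 0.073 by edgeR). The share of Mest in the counts of the pair was 55% in wild type against 62.3%, 54.7% and 65.4% in the clones.

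Over the 34 tested imprinted genes the median SD between clones was 0.16, against 0.13 over all genes tested, and 11 of the 34 (32.4%) were above 0.25, against 26.6% of all genes. The 25 tested genes that were not set apart as limited to tissues or transcripts had a median SD of 0.21, and the 9 that were set apart had 0.05. These 9 differ in level too, from 17.4 to 274 CPM. Without clone 3C, the median for the imprinted genes was 0.10 and that of all genes 0.10. The median for the imprinted genes was lower with any 1 clone left out, and these medians were not matched for level. Sfmbt2, a polycomb-related gene that is no member of the set and was picked after its values were seen, was the most variable of the other imprinted genes, with 5773 counts in wild type against 5397, 1276 and 4422 in 3C, 3D and 3M. Its low clone, 3D, was 1.79 below wild type on the log2 scale, and the spread was above that of 100% of the genes nearest in level. Which clone was the outlying one differed from gene to gene.

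**Figure D3:**
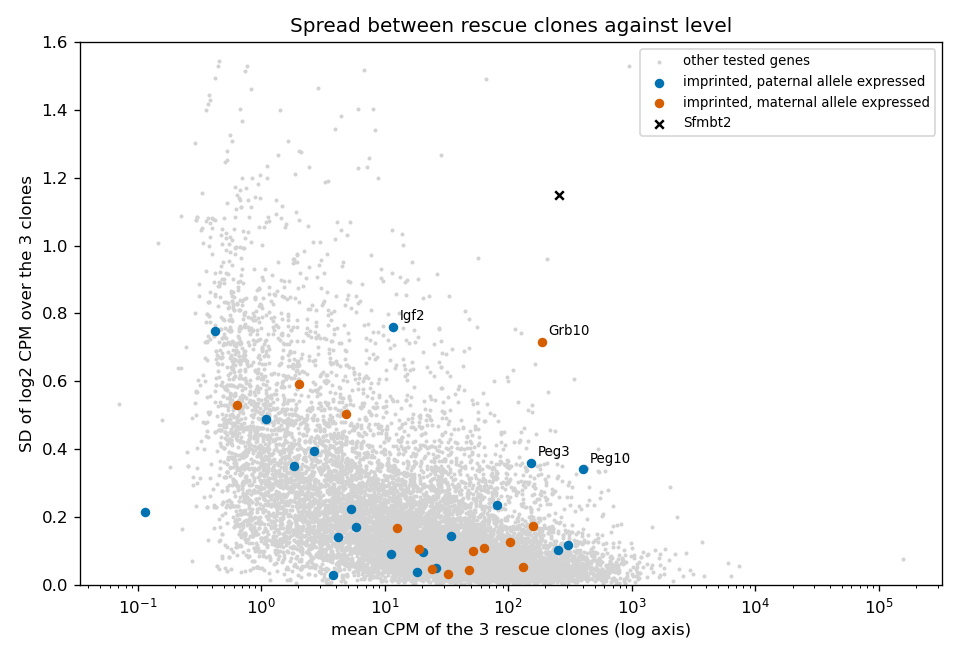
SD of log2 CPM over the 3 rescue clones against their mean CPM (log axis) for all tested genes (grey) and for imprinted genes expressed from the paternal (blue) or maternal (orange) copy, with Sfmbt2 as a cross; 14 tested genes lie above the axis limit of 1.6. Igf2, Grb10, Peg3 and Peg10 lie at the upper edge of the genes of their level, while most imprinted genes lie in the bulk.

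The remaining imprinted genes differed from wild type by less than 0.2 on the log2 scale in the fit. Zdbf2, a zinc finger gene of chromosome 1 (63200358 to 63314576), had 6618 counts in wild type against 4041, 4872 and 4432 in the clones (log2 fold change -0.18, SE 0.10, adjusted p = 0.58 by edgeR). Gnas, the stimulatory G protein subunit, had 2013 counts in wild type against 1443, 1586 and 1440 in the clones (log2 fold change -0.04, SE 0.11, adjusted p = 0.94 by edgeR). Nespas, the antisense RNA of the same locus, had 423 in wild type against 299, 285 and 309 (log2 fold change -0.11, SE 0.13). Both had at least 1 clone on each side of wild type or at its level. H13, a signal peptide peptidase, had 900 counts in wild type against 636, 726 and 735 in the clones (log2 fold change 0.03, SE 0.09, adjusted p = 0.94 by edgeR), and Mcts2, the retrogene in its intron, had 239 and 147, 176 and 167. Impact, an inhibitor of Gcn2 signalling, had 649 counts in wild type against 417, 491 and 585 in the clones (log2 fold change 0.01, SE 0.14, adjusted p = 0.99 by edgeR). Trappc9, a vesicle trafficking gene, had 523 in wild type against 333, 356 and 361 (log2 fold change -0.18, SE 0.11, adjusted p = 0.60 by edgeR). Peg13, the non-coding RNA within Trappc9, had 90 counts in wild type against 85, 68 and 77 in the clones.

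A further list of 45 imprinted genes, 42 of them with a row in the tables, gave 24 tested genes. By edgeR 0 were called, against 0.00754% of all genes, and 3 (12.5%) had an unadjusted p under 0.05, against 10.3% of all genes. DESeq2 called 0 of the 14 to which it gave an adjusted p, against 65 of 9409 over all genes. Cd81, a tetraspanin in the Kcnq1 cluster, had 174 ± 1.41 CPM (SD, n = 3) in rescue against 138 CPM in wild type (log2 fold change 0.33, SE 0.07, adjusted p = 0.22 by edgeR). Gpr1, a receptor gene that overlaps Zdbf2 on the other strand, had 24 counts in wild type against 41, 35 and 34 in the clones (log2 fold change 1.0, SE 0.37, adjusted p = 0.44 by edgeR). Osbpl5, a lipid transfer protein gene of the Kcnq1 region, had 39 counts in wild type against 12, 19 and 16 in the clones (log2 fold change -0.92, SE 0.36, adjusted p = 0.47 by edgeR). The median over the 24 was -0.06.

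Of 15 genes that keep imprints, all were tested and edgeR called 0, where it called 0.00754% of all genes. At an unadjusted p under 0.05 by edgeR there were 0, against 10.3% of all genes. DESeq2 called 0 of the 14 to which it gave an adjusted p, against 65 of 9409 over all genes. Zfp57, the zinc finger protein that binds methylated imprinting control regions, had 6171 counts in wild type against 5227, 5214 and 5208 in the clones (log2 fold change 0.16, SE 0.09). Trim28, its corepressor, had a log2 fold change of -0.08 (SE 0.08), Dnmt1, the maintenance methyltransferase, 0.14 (SE 0.06) and Uhrf1, which brings Dnmt1 to replicated DNA, 0.10 (SE 0.08). All 4 thus lay within 0.16 of wild type on the log2 scale. Dppa3, which protects methylation in the early embryo, had 65 counts in wild type against 26, 47 and 92 in the clones, on both sides of wild type.

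Of 15 genes that set, remove or insulate imprints, 13 were tested. By edgeR 0 were called, against 0.00754% of all genes, and 2 (15.4%) had an unadjusted p under 0.05, against 10.3% of all genes. Dnmt3a, a de novo DNA methyltransferase, had 3179 counts in wild type against 1055, 921 and 966 in the clones, so that all clones were far below wild type, at 68.0 ± 8.92 CPM (SD, n = 3) against 167 CPM. Its difference in the fit was -1.30 on the log2 scale (SE 0.13, adjusted p = 0.11 by edgeR), and DESeq2's Wald test, with an adjusted p of 1.3e-09, called it. Dnmt3l, the cofactor of the de novo enzymes, had 6311 counts in wild type against 3165, 1390 and 2488 in the clones, all lower and with a wide spread (log2 fold change -1.02, SE 0.41, adjusted p = 0.49 by edgeR). Dnmt3b, named after its values were seen, was also lower in all clones, with 4428 counts against 2638, 2035 and 2794 and a log2 fold change of -0.43 (SE 0.18). Kdm1b, a histone demethylase needed for maternal imprints, had 355 counts in wild type against 406, 329 and 469 in the clones (log2 fold change 0.57, SE 0.20, unadjusted p = 0.031 by edgeR). It lies on chromosome 13, where the median difference from wild type over 512 tested genes was 0.48 in 3C, 0.03 in 3D and 0.48 in 3M on the log2 scale. None of the 44 imprinted genes lies on chromosome 13, nor on chromosome 14, where the medians over 465 genes were 0.34, 0.34 and 0.35. Without clone 3D, edgeR called Dnmt3a (adjusted p = 4.7e-05), Dnmt3l (0.0066) and Kdm1b (0.0083), and Arid4b of the maintenance list (0.0085), which also lies on chromosome 13, when 3.17% of all genes were called. No part of the de novo methyltransferase levels in the values of the imprinted genes was tested.

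**Figure D4:**
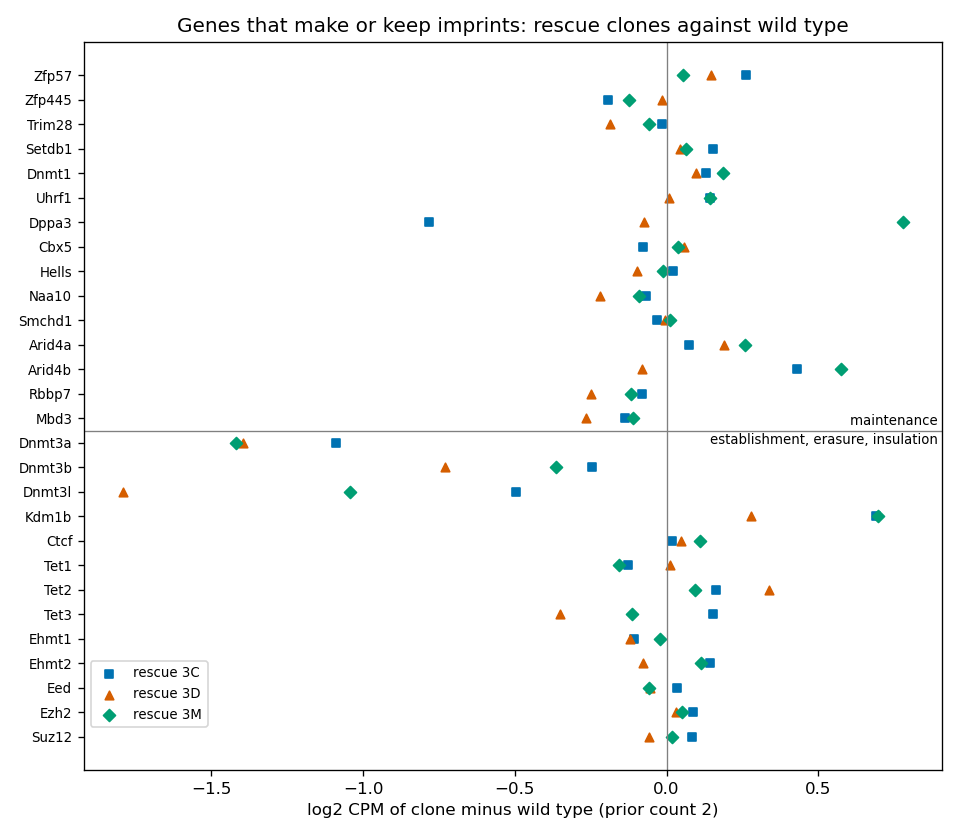
Difference of each rescue clone from wild type in log2 CPM (squares 3C, triangles 3D, diamonds 3M) for the tested genes that keep imprints (above the line) and that set, remove or insulate them (below it). Dnmt3a, Dnmt3b and Dnmt3l lie below 0 in all 3 clones, while Zfp57, Trim28, Dnmt1 and Uhrf1 lie near 0.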

How the data were processed

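RNA from 3 Morc3 rescue clones and 1 wild-type ES cell culture was sequenced as rRNA-depleted, directional paired-end libraries. The authors aligned the read pairs to mm10 with STAR and deposited counts of read pairs per gene, without normalization, with 3 columns, unstranded, forward and reverse. The study's software list names STAR 2.7.1a, but for the gene annotation a name was not given in the sources used here. Since the kit is directional, the reverse column was analysed, and forward counts came to 1.26% to 1.31% of it. The 4 rows that name no gene were left out throughout. Pairs outside genes were 23.6% to 24.7%, multimapping pairs 7.85% to 8.21% and ambiguous pairs 0.264% to 0.329% of all pairs. Pairs counted for genes were 52.7% in wild type against 45.2%, 45.1% and 47% in 3C, 3D and 3M. Unmapped pairs made up the rest, so their share was larger in every clone than in wild type. The part of this difference in the comparison of rescue with wild type was not tested.

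Counts of all genes entered the quasi-likelihood test of edgeR 4.0.16 under R 4.3.3 (TMM, filterByExpr, Benjamini-Hochberg adjusted p of 0.01). The standard error is the size of the log2 fold change over the square root of F. The spread comes from the 3 clones, and the same spread is taken to hold for wild type. The labels name 3 clone lines and do not say how the cultures were grown, so the spread may be partly technical. Differences of single clones are in log2 CPM with a prior count of 2. Genes too low for the test got exact 95% intervals of the rate ratio, which cover counting error only. The steps were tested on simulated counts. Positions, promoters and lengths came from RefSeq GRCm38.p6 and GENCODE M21 (44 of 44 genes matched; Nespas through its RefSeq synonym). Alternatives were DESeq2 1.42.0, limma-voom 3.58.1, edgeR's legacy method, other scalings and filters, the unstranded column, an adjusted p of 0.05, a prior count of 0.5 and each clone left out. The members and lists were chosen with earlier results of these data known. All 44 genes are named: those with an unadjusted p under 0.05 or a log2 fold change of 1 or more, and the highest of each cluster, have full values. Of the other lists, genes with an unadjusted p under 0.05 and Zfp57, Trim28, Dnmt1, Uhrf1, Dnmt3l and Dppa3 are named.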

Additional observations from a re-analysis of the deposited data

Results flagged for a closer look

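The forward-strand column, used above only for the counts opposite to Nnat, held more CPM on Inpp5f in all 3 clones than in wild type, 4.88 CPM on average against 4.09 CPM (78 counts in wild type against 62, 74 and 77 in 3C, 3D and 3M). It was the only imprinted gene with more than 3 forward counts in every library, at least 5% of the counts of both strands, and every clone above wild type. The difference was not tested.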

How the results depend on the processing

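Of 403 recomputed log2 fold changes of the imprinted genes, 375 kept their direction and side of the threshold, 12 kept their direction but got no adjusted p from DESeq2, 15 reversed and 1, Igf2, became a call without clone 3D. Grb10 reversed with limma-voom (-0.079) and Usp29 in the unstranded column (0.11). The others reversed when a clone was left out, with the lowest and highest value for Peg3 -0.20 and 0.11, Usp29 -0.38 and 0.044, Ascl2 -0.66 and 0.011 and Blcap -0.058 and 0.032 (above 0 without 3C), Zim1 -0.55 and 0.15 and Dlk1 0.078 and 0.22 (above 0 without 3C or 3D; Dlk1 was too low for the test without 3M), Grb10 -0.36 and 0.32 (below 0 without 3D), Igf2r -0.018 and 0.13 (below 0 without 3D or 3M), Impact -0.073 and 0.071 and Gnas -0.079 and 0.033 (turned without 3M). The non-member Sfmbt2 lay between -0.70 and 0.18 (above 0 without 3D). Imprinted genes called ranged from 0 to 1 with each clone left out (1 without 3D), and those at an unadjusted p under 0.05 from 4 to 10 (10 without 3D, where 18.6% of all genes were at this p, and 4 without 3M, where 5.70% were), and were 3 with DESeq2 (5.75%). Genes of the establishment list called ranged from 0 to 3 (3 without 3D) and were 1 with DESeq2, and of the maintenance list from 0 to 1 (1 without 3D). Over all genes, DESeq2 called 65 and edgeR 420 without 3D; the cause was not tested. The imprinted genes whose clones all lay above or all below wild type numbered 19 to 23 with 2 clones left, since fewer clones must then lie together (67.3% to 75.3% of all genes). The paternal median lay between -0.073 and 0.058 and the maternal between -0.12 and -0.027 when 1 clone was missing, and the paternal one was also above 0 with no filter (0.014), the stricter filter (0.023) and the unstranded column (0.012). With 1 clone left out, the median SD between clones of the imprinted genes lay between 0.098 and 0.142. It was 0.156 in the main fit, 0.219 with no filter, 0.133 with the stricter filter and 0.172 in the unstranded column. In the unstranded column, mean shares in the clones were 0.105% for Airn, 50.7% for Mest, 29.9% for Nnat, 47.3% for Zrsr1 and 14.9% for Nespas, against 0.039%, 60.8%, 18.0%, 44.6% and 16.7%; reads of the other strand or of overlapping exons are handled differently there by construction. No paired analysis was possible because 1 wild-type library cannot be paired with 3 clones, and their labels carry no common numbers. Depth limited the 10 genes that were too low for the test.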

Other observations

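Forward-strand counts were a large share of both strands at a few other imprinted genes. On Copg2 they were 490 in wild type against 432, 351 and 507 in 3C, 3D and 3M, 29.6% of both strands in wild type against 39.1%, 30.0% and 39.6% in the clones. On Zrsr1 they were 85 in wild type against 41, 48 and 43 in the clones, and on Kcnq1, which lies opposite to Kcnq1ot1, they were 19 in wild type against 11, 12 and 7. In GENCODE, 17.8% of the exonic bases of Copg2 lie opposite to exons of Mest, 9.17% of those of Zrsr1 opposite to Commd1 and 2.96% of those of Kcnq1 opposite to Kcnq1ot1. Of the exonic bases of Nespas, 31.4% lie opposite to Gnas, and forward counts on Nespas were 29 in wild type against 16, 11 and 11 in the clones.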
